A study of Rattus norvegicus with 26 samples.

Results

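The miR-106b-25 cluster is a group of microRNAs carried in an intron of Mcm7, the gene of a subunit of the replicative DNA helicase. Its members on the array were taken by exact name and are rno-miR-106b, rno-miR-93 and rno-miR-25, which are 3 of the 677 rat miRNAs with probes. Liver miRNAs were measured on 26 Agilent arrays, each holding RNA of 1 rat, to set an operation with strong hepatocyte replication against one with little. The animals were male Sprague-Dawley rats whose age the records do not give, and the right lobes were taken. The study chose this cluster on these samples for its later experiments, so the direction of its members here is not independent evidence for that choice.

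The 9 groups were normal liver (3 arrays) and remnant liver at 6, 12, 24 and 36 h after removal of 1/3 of the liver (1/3 PH, partial hepatectomy) or of 2/3 of it (2/3 PH). Each group had 3 arrays except 1/3 PH at 6 h, which had 2. The protocol label of the normal livers speaks of a sham operation, while the paper calls these animals normal. Times follow the sample titles, and the source names of some arrays give 13, 14, 25, 26, 37 or 38 h where the titles give 12, 24 or 36 h.

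After a large resection the remaining hepatocytes leave quiescence, copy their DNA and divide, and the liver regains its mass. Mcm7 belongs to the set of replication genes that E2F factors switch on as cells approach S phase, and its primary transcript also holds the hairpins of the cluster. Mature miRNAs pair with messenger RNAs mainly through their seed, and known targets of these seeds include inhibitors of the cell cycle such as p21 and the death factor Bim.

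The mature sequences show which members can be expected to bind the same targets. They come from RefSeq on build GRCr8, where all 3 members matched an entry, the array names standing for the 5p strands of miR-106b and miR-93 and the 3p strand of miR-25. All lie on the minus strand of chromosome 12, at chr12:22157103-22157123 (rno-miR-106b), chr12:22156894-22156916 (rno-miR-93) and chr12:22156652-22156673 (rno-miR-25). The 3 hairpins lie inside the bounds of Mcm7, and 472 bases span from the first to the last mature base. Capitals mark the seed, bases 2 to 8.
rno-miR-106b: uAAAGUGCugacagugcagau
rno-miR-93: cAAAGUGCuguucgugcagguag
rno-miR-25: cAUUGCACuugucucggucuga

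rno-miR-106b and rno-miR-93 share their seed, and from the 5′ end they have the same base at 16 of 21 positions. rno-miR-25 has a different seed and is identical to rno-miR-106b at 5 of 21 positions and to rno-miR-93 at 9 of 22. Of the relatives named below, rno-miR-17-5p matches rno-miR-93 at 19 of 23 positions and rno-miR-106b at 18 of 21. rno-miR-92a matches rno-miR-25 at 18 of 21, so these relatives are closer to the members than the members are to each other. Whether RNA of such relatives also bound the members' probes was not tested. Of the 13 member, other-strand and family names looked up in RefSeq, 13 matched. The relatives that follow share a seed with a member and were detected, and they are printed because they serve as the comparison further down. miR-17-5p and miR-20a belong with miR-92a to the miR-17 to miR-92a cluster at chr15:98587861-98587883, chr15:98588318-98588340 and chr15:98588602-98588622 on the plus strand. miR-20b-5p lies at chrX:137343239-137343261 on the minus strand, and RefSeq lists copies of the mature miR-17-5p and miR-92a sequences on chromosome X as well.
rno-miR-17-5p: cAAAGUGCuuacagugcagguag
rno-miR-20a: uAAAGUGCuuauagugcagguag
rno-miR-20b-5p: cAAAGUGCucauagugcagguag
rno-miR-92a: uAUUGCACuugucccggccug

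The promoter of the host gene is shown because the members are cut from its transcript. The window holds 250 bases before and 50 after the start of Mcm7 in RefSeq (GRCr8, chr12:22163129-22163428, minus strand, printed along the gene). Capitals mark the words TTTCCCGC, TTTCGCGC, TTTGCCGC and TTTGGCGC, spellings of the E2F motif, and the word CCAAT, all searched on both strands.
Mcm7 promoter: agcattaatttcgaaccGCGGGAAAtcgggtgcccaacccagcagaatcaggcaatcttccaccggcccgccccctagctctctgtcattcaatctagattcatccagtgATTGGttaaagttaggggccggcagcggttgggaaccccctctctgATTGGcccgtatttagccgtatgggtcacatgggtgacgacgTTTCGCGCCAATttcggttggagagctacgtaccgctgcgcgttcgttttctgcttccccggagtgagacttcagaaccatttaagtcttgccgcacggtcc

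The E2F spellings were found at 2 places, bases 18 to 25 on the opposite strand and bases 199 to 206 on the strand of the gene. CCAAT was found at 3 places, bases 111 to 115 and 157 to 161 on the opposite strand and bases 206 to 210 on the strand of the gene, where it overlaps the E2F spelling by its first base. Of 33469 promoter windows of the same length, 2.14% held an E2F spelling, 37.5% held CCAAT and 0.777% held both. These are matches of letters, and no binding was measured.

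Levels are given as array signal, the fluorescence summed over the probes of a miRNA after scaling of each array, and differences as log2. rno-miR-106b and rno-miR-25 were detected on all 26 arrays and rno-miR-93 on 25. The signals of rno-miR-93, between 13.7 and 53.7, came near background. On 2 arrays they were under the floor, which is the smallest signal among that array's clearly detected probes, and were set to it. 1 array stood apart before any comparison: 1/3 PH at 12 h, replicate 2, had a total signal of 12434.5 against 39148.8 to 68366.3 on the others. It detected 91 miRNAs, and rno-miR-93 was not among them. Its effect is named where a member's call depends on it.

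The strand kept from each hairpin is the one measured. The opposite strands have probes too, but rno-miR-106b* was detected on 1 array and rno-miR-93* and rno-miR-25* on 0, so none of these 3 was tested. The tissue label fits its markers: miR-122, the dominant miRNA of hepatocytes, had a median signal of 38640 and was detected on all arrays. These are bulk liver samples, in which fewer cells of a type and less RNA per cell cannot be told apart.

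rno-miR-106b gave signals of 55.7, 57.5 and 59.9 in the normal livers. The early arrays of 1/3 PH gave 58.1 and 50.5 at 6 h, and 50.5, 33.5 and 54.9 at 12 h. The later 1/3 PH arrays gave 72.2, 74.1 and 57.6 at 24 h, and 65.7, 67 and 62.2 at 36 h. The normal arrays thus lay close together, and the array with low total signal gave the 33.5. Early arrays of 2/3 PH gave 44.2, 38.6 and 43.9 at 6 h, and 46.2, 51.9 and 50.2 at 12 h. Those 6 arrays all lay below the normal livers. At 24 h after 2/3 PH the arrays gave 88.3, 92.03 and 75.8, and at 36 h 105.3, 97.6 and 86.7. Those 6 arrays all lay above every other array of the series, the lowest at 75.8 against a highest of 74.1 elsewhere.

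rno-miR-93 gave 23.2, 23.6 and 19.6 in the normal livers. Its signals after 1/3 PH were 21.9 and 26.4 at 6 h, and 24.1, 13.7 and 26.7 at 12 h, where the 13.7 was set to a floor of 24.3. At 24 h it gave 26.6, 23.01 and 21.4, and at 36 h 24.9, 20.7 and 20.5. Normal and 1/3 PH arrays overlapped at 6, 24 and 36 h, while at 12 h all 3 arrays lay above the normal ones once the 13.7 was set to its floor. The larger resection gave 22.2, 19.1 and 18.8 at 6 h, the 19.1 being set to a floor of 20.2, and 21.7, 21.6 and 22.6 at 12 h. At 24 h the arrays gave 50.4, 42.95 and 36.9, and at 36 h 53.7, 47.5 and 45.8. The gap to the rest was clear, since no other array exceeded 26.7.

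rno-miR-25 gave 113, 90.6 and 80.8 in the normal livers. The smaller resection gave 102 and 105.5 at 6 h, and 106, 64.8 and 109 at 12 h. At 24 h it gave 109, 99.7 and 92.7, and at 36 h 97.9, 94.6 and 88.1. All 1/3 PH arrays except the 64.8, again from the array with low total signal, lay within the range of the normal livers. Early after 2/3 PH it gave 96.1, 108 and 89.8 at 6 h, and 98.7, 111 and 101 at 12 h. At 24 h the arrays gave 123, 149 and 123, and at 36 h 138, 142 and 141. These 6 arrays were again the highest of the series, with the normal array at 113 the nearest below them.

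The order of the group levels was led for each member by 2/3 PH at 36 h and then at 24 h. rno-miR-106b had geometric means of 96.3 and 85.1 there and of 57.7 in normal liver, with a lowest level of 42.1 at 6 h after 2/3 PH. rno-miR-93 had 48.9 and 43.1 against 22.1 in normal liver, and rno-miR-25 had 140.1 and 131.0 against 93.9. Of the 8 steps down the order, the arrays of neighbouring groups did not overlap at 2 for rno-miR-106b, 1 for rno-miR-93 and 1 for rno-miR-25. For each member the step below 2/3 PH at 24 h was such a step, and the other one lay between 1/3 PH at 36 h and normal liver for rno-miR-106b. The remaining neighbours overlapped. Arrays of the same group differed with a pooled SD (log2) of 0.18 for rno-miR-106b, 0.15 for rno-miR-93 and 0.19 for rno-miR-25.

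**Figure D1:**
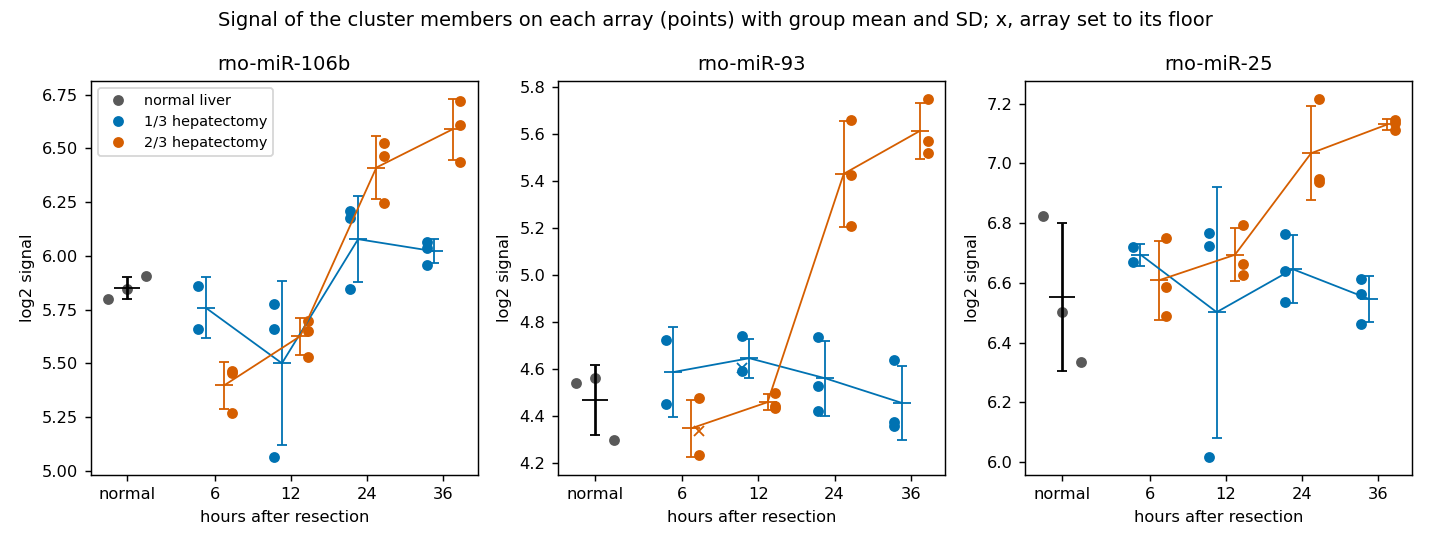
Log2 signal of rno-miR-106b, rno-miR-93 and rno-miR-25 on each array (points, crosses for arrays set to their floor) against hours after resection, with the group mean and SD for normal liver, 1/3 PH and 2/3 PH. For each member the 6 arrays of 2/3 PH at 24 and 36 h lie above the other 20, and for rno-miR-93 the gap runs from 26.7 to 36.9 in signal.

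The comparison of 1/3 PH with normal liver asks whether a small resection, with its surgical stress but little replication, moved the cluster. No member passed the test at any of the 4 times. rno-miR-93 and rno-miR-25 differed from normal liver by 0.18 or less (log2) at each time, with SEs of 0.13 to 0.18. On all arrays the largest difference was that of rno-miR-106b at 12 h, -0.35 (SE 0.15, 3 arrays against 3, limma adjusted p = 0.134), with 3 of 3 arrays below the normal mean. It was -0.13 without the array of low total signal and -0.08 on the larger scan day (2 arrays against 1). Members called were 0 at 6 h, where limma called 0% of the 144 tested miRNAs and 8 had an unadjusted p under the threshold of 0.05, none of them members. At 12 h 0 members were called by limma against 4.17% of all tested, and at an unadjusted p 38 miRNAs passed, rno-miR-106b among them. At 24 h 0 were called against 0.694% (16 at an unadjusted p, 0 of them members), and at 36 h 0 against 0% (7 at an unadjusted p, 0 of them members). A value that misses the threshold does not show equal levels: the 95% interval at 36 h ran from -0.14 to 0.48 for rno-miR-106b, from -0.28 to 0.26 for rno-miR-93 and from -0.34 to 0.33 for rno-miR-25.

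After 2/3 PH all members rose against normal liver, and they did so late. At 24 h rno-miR-93, which shares its seed with rno-miR-106b, rose 1.95-fold, or 0.96 log2 (SE 0.13, adjusted p = 5.82e-05), and it had the smallest p of the 144 miRNAs. rno-miR-106b rose 1.48-fold (0.56, SE 0.15, adjusted p = 0.0138) and rno-miR-25 1.40-fold (0.48, SE 0.16, adjusted p = 0.0439). At 36 h the changes were 2.21-fold for rno-miR-93 (1.15, SE 0.13, adjusted p = 2.1e-06), 1.67-fold for rno-miR-106b (0.74, SE 0.15, adjusted p = 0.0018) and 1.49-fold for rno-miR-25 (0.58, SE 0.16, adjusted p = 0.0114). In each of these 6 results 3 of 3 arrays lay above all 3 normal arrays. The calls depend on the processing: 0 of the 6 passed in limma without scaling, with the 75th percentile of all probes, with all spots or with normexp. Normexp here added an offset of 50 to each spot, which by itself makes log2 differences of signals this low smaller. With it the log2 signal of rno-miR-93 in normal replicate 1 was 7.23 in place of 4.54. A call lost with normexp therefore cannot be told apart from the effect of that offset. With normexp the 24 h values were 0.31 for rno-miR-93, 0.25 for rno-miR-106b and 0.29 for rno-miR-25, and with the 75th percentile of all probes 0.50, 0.10 and 0.02. The 36 h values were 0.85, 0.72 and 0.64 with normexp and 1.06, 0.65 and 0.49 with that percentile. With normexp the median of all miRNAs was itself 0.63 at 36 h. Relative to it the members were 0.22, 0.09 and 0.02, against 1.09, 0.68 and 0.52 in the main fit. With that percentile, values relative to the median were as in the main fit at 24 and 36 h. Without scaling the values were 0.89, 0.49 and 0.41 at 24 h and 0.99, 0.58 and 0.42 at 36 h.

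Members called by limma were 0 at 6 h (0% of all tested, 15 at an unadjusted p, 1 of them a member), 0 at 12 h (6.94%, 26 at an unadjusted p, 0 of them members), 3 at 24 h (18.1%) and 3 at 36 h (18.8%). At 6 h rno-miR-106b lay below normal liver on 3 of 3 arrays, with a difference of -0.45 (SE 0.15, unadjusted p = 0.0069) that did not pass adjustment (adjusted p = 0.184). It passed without the array of low total signal, and under normexp background correction it was 0.42. The median of all miRNAs was 0.57 under normexp, and relative to it rno-miR-106b was -0.15. At 12 h its difference was -0.22, against -0.01 for rno-miR-93 and 0.14 for rno-miR-25. Medians of all tested miRNAs moved by 0.05 at 24 h and 0.06 at 36 h. The 4 comparisons with normal liver share the same 3 normal arrays, with each other and with those of 1/3 PH.

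The normal arrays were scanned on 3 different days, so the comparison was also taken within days. At 24 h all 2/3 PH arrays fell on 1 scan day with 1 normal array, where the differences were 0.89 for rno-miR-93, 0.61 for rno-miR-106b and 0.21 for rno-miR-25. Those 24 h arrays shared no slide with a normal array, so slide and operation cannot be told apart there by a value within a slide. At 36 h the differences were 1.36, 0.76 and 0.79 on the day with 2 arrays against 1, and 0.96, 0.59 and 0.63 on the day with 1 against 1. The call of rno-miR-25 at 24 h was lost in 15 of the 26 fits that left out 1 array, 0.37 without normal replicate 3 being the lowest value. At 36 h it was lost without normal replicate 3 (0.47). The call of rno-miR-106b at 24 h was lost without replicate 1 or 2 of that group, the lowest value being 0.50. With scan day as a term rno-miR-25 at 24 h was 0.25 and not called, nor was it with slide as a random block (0.47).

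The direct comparison of 2/3 PH with 1/3 PH is the one the study used to separate replication from surgical stress. At 24 h rno-miR-93 was 1.83-fold higher after the larger resection (0.87, SE 0.13, adjusted p = 0.000248), again with the smallest p of all tested miRNAs. At 36 h all members were higher: rno-miR-93 2.23-fold (1.16, SE 0.13, adjusted p = 1.8e-06), rno-miR-25 1.499-fold (0.58, SE 0.16, adjusted p = 0.0186) and rno-miR-106b 1.48-fold (0.57, SE 0.15, adjusted p = 0.0174). Of these 4 calls limma kept 0 with normexp and 0 without scaling, and with normexp rno-miR-93 was 0.30 at 24 h and 0.77 at 36 h. The 36 h values of rno-miR-106b and rno-miR-25 with normexp were 0.58 and 0.60, where the median of all miRNAs was 0.51. Relative to that median rno-miR-93, rno-miR-106b and rno-miR-25 were 0.26, 0.07 and 0.09 at 36 h. In the main fit the same values were 1.28, 0.69 and 0.71. Without scaling rno-miR-93 was 0.79 at 24 h, and at 36 h the members were 1.03 (rno-miR-93), 0.44 (rno-miR-106b) and 0.45 (rno-miR-25). At 24 h the differences of rno-miR-106b, 0.33 (SE 0.15, adjusted p = 0.392), and of rno-miR-25, 0.39 (SE 0.16, adjusted p = 0.301), did not pass. That of rno-miR-25 passed without the array of low total signal, and that of rno-miR-106b was -0.10 with the 75th percentile of all probes. With that percentile the median of all miRNAs was -0.42, and relative to it rno-miR-106b was 0.32, as in the main fit. For both members 3 of 3 arrays of 2/3 PH at 24 h nevertheless lay above all 3 arrays of 1/3 PH.

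limma called 0 members at 6 h (0% of all tested, 3 at an unadjusted p, 1 of them a member) and 0 at 12 h (0%, 9 at an unadjusted p, 0 of them members). It called 1 at 24 h (2.78%, 15 at an unadjusted p, 3 of them members) and 3 at 36 h (15.3%, 34 at an unadjusted p, 3 of them members). At 6 h rno-miR-106b differed by -0.36 (SE 0.17, adjusted p = 0.946) and rno-miR-93 by -0.24, with 3 of 3 arrays of 2/3 PH below the mean of 1/3 PH in both cases. The value of rno-miR-106b was 0.42 with normexp and 0.10 with the deposited values, where the medians of all miRNAs were 0.53 and 0.20. Relative to those medians it was -0.11 in both cases. At 24 and 36 h the operations shared no slide, so operation and slide cannot be told apart there by a value within a slide. The 36 h arrays of the operations were also scanned on different days, so operation and scan day cannot be told apart there by a value within a day. With scan day as a term in the fit this comparison kept its calls for all members, but with slide as a random block rno-miR-106b lost its call (0.56), and on the shared day at 24 h the differences were 0.80 for rno-miR-93, 0.22 for rno-miR-106b and 0.33 for rno-miR-25. The 36 h calls of rno-miR-106b and rno-miR-25 were lost without 1/3 PH replicate 3 or 2/3 PH replicate 1 or 2 of that time, and that of rno-miR-25 also without 1/3 PH replicate 2. Without them the values ran down to 0.50 for rno-miR-106b and 0.54 for rno-miR-25.

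**Figure D2:**
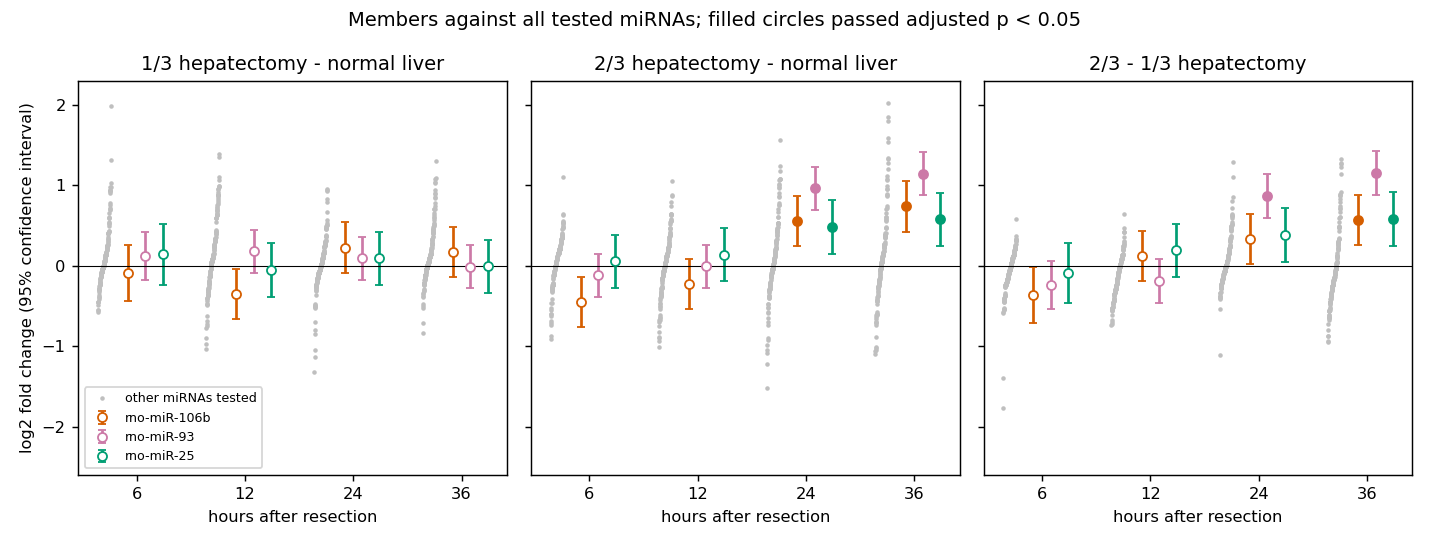
Log2 fold change with 95% confidence interval of the members (coloured, filled where the adjusted p passed) and of the other tested miRNAs (grey) by hours after resection, for 1/3 PH against normal liver, 2/3 PH against normal liver and 2/3 PH against 1/3 PH. The members lie within the grey cloud after 1/3 PH, and rno-miR-93 reaches 1.15 against normal liver and 1.16 against 1/3 PH at 36 h after 2/3 PH.

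The time courses were then compared as late hours (mean of 24 and 36 h) against early hours (mean of 6 and 12 h) within each operation. After 2/3 PH all members rose between these windows: rno-miR-93 2.17-fold (1.12, SE 0.09, adjusted p = 2.1e-08), rno-miR-106b 1.98-fold (0.99, SE 0.11, adjusted p = 9.8e-07) and rno-miR-25 1.35-fold (0.43, SE 0.11, adjusted p = 0.0051). For each of them all 6 late arrays lay above all 6 early arrays. Under normexp background correction, whose offset of 50 itself shrinks log2 differences, the changes were 0.17, 0.25 and 0.17 and 0 were called by limma. With the 75th percentile of all probes 0 were called too, where the changes were 1.05, 0.92 and 0.36. The only member to rise after 1/3 PH was rno-miR-106b, 1.34-fold (0.42, SE 0.11, adjusted p = 0.0243), with 5 of 6 late arrays above all 5 early ones. The values of the other members after 1/3 PH were -0.11 (SE 0.10, adjusted p = 0.604) for rno-miR-93 and -0.00 (SE 0.12, adjusted p = 0.988) for rno-miR-25, the latter -0.12 without the array of low total signal. limma called 1 member after 1/3 PH, where it called 9.72% of all tested miRNAs, and 3 members after 2/3 PH, where it called 34.7%.

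A call after one operation and none after the other is no difference between them, so the difference itself was tested. The change was larger after 2/3 PH by 1.23 (SE 0.13, adjusted p = 2.3e-06) for rno-miR-93 and by 0.57 (SE 0.15, adjusted p = 0.0279) for rno-miR-106b. For rno-miR-25 it was 0.43 (SE 0.16, adjusted p = 0.124) and did not pass. Thus 2 of the 3 members were called, against 6.94% of all tested miRNAs, and rno-miR-93 had the smallest p of all. The call of rno-miR-93 was lost with normexp (0.49), without scaling (0.96), with the 75th percentile of all probes (1.52) and with the deposited values (0.10, but 1.22 and called without the array of low total signal, where that table holds its undetected value), and that of rno-miR-106b under these and 4 other alternatives. Within the scan day that held 7 arrays of 2/3 PH and 9 of 1/3 PH the differences were 1.11 for rno-miR-93, 0.57 for rno-miR-106b and 0.46 for rno-miR-25. On the day with 3 and 2 arrays, the array of low total signal included, they were 1.34, 0.10 and 0.04. Without that array the difference of rno-miR-25 was 0.55 (adjusted p = 0.0040), and the late change of rno-miR-106b after 1/3 PH was 0.31 and still called. The call of rno-miR-106b in the difference between operations was lost in 8 of 26 fits without 1 array, with values from 0.50 to 0.68.

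Late and early arrays of 2/3 PH shared no slide, so slide and time cannot be told apart there by a value within a slide. On single scan days the late changes after 2/3 PH were 1.01 for rno-miR-93, 0.92 for rno-miR-106b and 0.35 for rno-miR-25 (3 arrays against 4), and 1.15, 0.89 and 0.56 (1 against 2). Those after 1/3 PH were -0.10, 0.35 and -0.11 (5 against 4), and -0.18, 0.78 and 0.52 (1 against 1, the early array being that of low total signal). The call of rno-miR-106b after 1/3 PH was lost in 4 fits without 1 array and with slide as a random block (0.41). The value also turned to -0.11 when spots with outlier marks were kept, and to -0.10 under normexp background correction. In the latter case the median of all miRNAs was -0.25, and relative to it the value was 0.15. In the former case 1 array at 6 h after 1/3 PH had a log2 value of 8.12 in place of 5.66.

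Of the steps from one time to the next, that from 12 to 24 h was called for rno-miR-93 and rno-miR-106b after 2/3 PH. It was 1.96-fold for rno-miR-93 (0.97, SE 0.13, adjusted p = 5.2e-05) and 1.72-fold for rno-miR-106b (0.78, SE 0.15, adjusted p = 0.0021), while rno-miR-25 gave 0.34 (SE 0.16, adjusted p = 0.180), which passed without the array of low total signal. On the shared scan day these steps were 0.99, 0.80 and 0.32, while no slide held 2/3 PH arrays of both times. Under normexp they were 0.14, 0.21 and 0.14 with 0 called by limma. The steps from 24 to 36 h were 0.54, 0.46 and 0.35 there (0 called), where the median of all miRNAs was 0.55. Relative to that median these later steps were -0.01, -0.08 and -0.19. rno-miR-106b also rose over the same step after 1/3 PH, by 0.58 (SE 0.15, adjusted p = 0.0485), a call lost in 19 of 26 fits without 1 array. Without the array of low total signal that value was 0.36, and under normexp background correction it was -0.34. With normexp the median of all miRNAs over this step was -0.60, and relative to it rno-miR-106b was 0.26.

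Over this step limma called 2 members of 3 after 2/3 PH (16% of all tested) and 1 after 1/3 PH (3.47%). From 6 to 12 h it called 0 members after either operation, against 0% of all tested in both cases (16 at an unadjusted p after 1/3 PH and 15 after 2/3 PH, 0 of them members). From 24 to 36 h it called 0 members against 0% after 1/3 PH (6 at an unadjusted p) and 0 against 0.694% after 2/3 PH (11 at an unadjusted p), again with 0 members at an unadjusted p. The values from 24 to 36 h after 2/3 PH were 0.18 for rno-miR-106b, 0.18 for rno-miR-93 and 0.10 for rno-miR-25.

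Each member is measured by a bright and a dim probe, and the results rest on the bright one. The bright probe was well above background on 26 arrays for rno-miR-106b, 24 for rno-miR-93 and 26 for rno-miR-25, and the dim one on 10, 0 and 2. On the bright probe alone the late change after 2/3 PH was 0.96 for rno-miR-106b, 1.05 for rno-miR-93 and 0.44 for rno-miR-25. The bright probes gave after 1/3 PH 0.41, -0.15 and 0.02. The dim probe of rno-miR-106b, near background, gave 0.39 after 2/3 PH and -0.15 after 1/3 PH.

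Members cut from 1 transcript could move together from rat to rat, so their covariation was examined. Across all arrays the 6 late arrays of 2/3 PH lay apart from the other 20 for every member, and a coefficient over all 26 takes in that gap. It was 0.78 for rno-miR-106b with rno-miR-93, 0.74 for rno-miR-106b with rno-miR-25 and 0.78 for rno-miR-93 with rno-miR-25 (Pearson r, permutation adjusted p = 1.5e-05, 2e-05 and 1.5e-05 over the 3 pairs). For the first and last of these pairs the raw p was 1e-05, which is the smallest the permutations can give. Without the 2 arrays farthest from the median r was 0.80, 0.62 and 0.76. Within the scan day of 17 arrays r was 0.72, 0.49 and 0.81, and within that of 6 arrays 0.71, 0.93 and 0.68.

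Deviations from the group means remove the differences between groups. Over the 26 arrays their r was 0.30 for rno-miR-106b with rno-miR-93 (permutation p = 0.156), 0.61 for rno-miR-106b with rno-miR-25 (p = 0.103) and 0.32 for rno-miR-93 with rno-miR-25 (p = 0.113), all with an adjusted p of 0.156. Without the 2 arrays farthest from the median the r of rno-miR-106b with rno-miR-25 was -0.04, and the other pairs gave 0.23 and 0.40. That relation rests on those arrays, 1 of which is the array of low total signal, with deviations of -0.44 and -0.48 for these members. Within the scan day of 16 usable arrays r was 0.28, 0.31 and 0.21. As a description, 73.7%, 92.5% and 75.6% of the 10296 pairs of tested miRNAs had a lower r over deviations, where the median pair had 0.04.

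**Figure D3:**
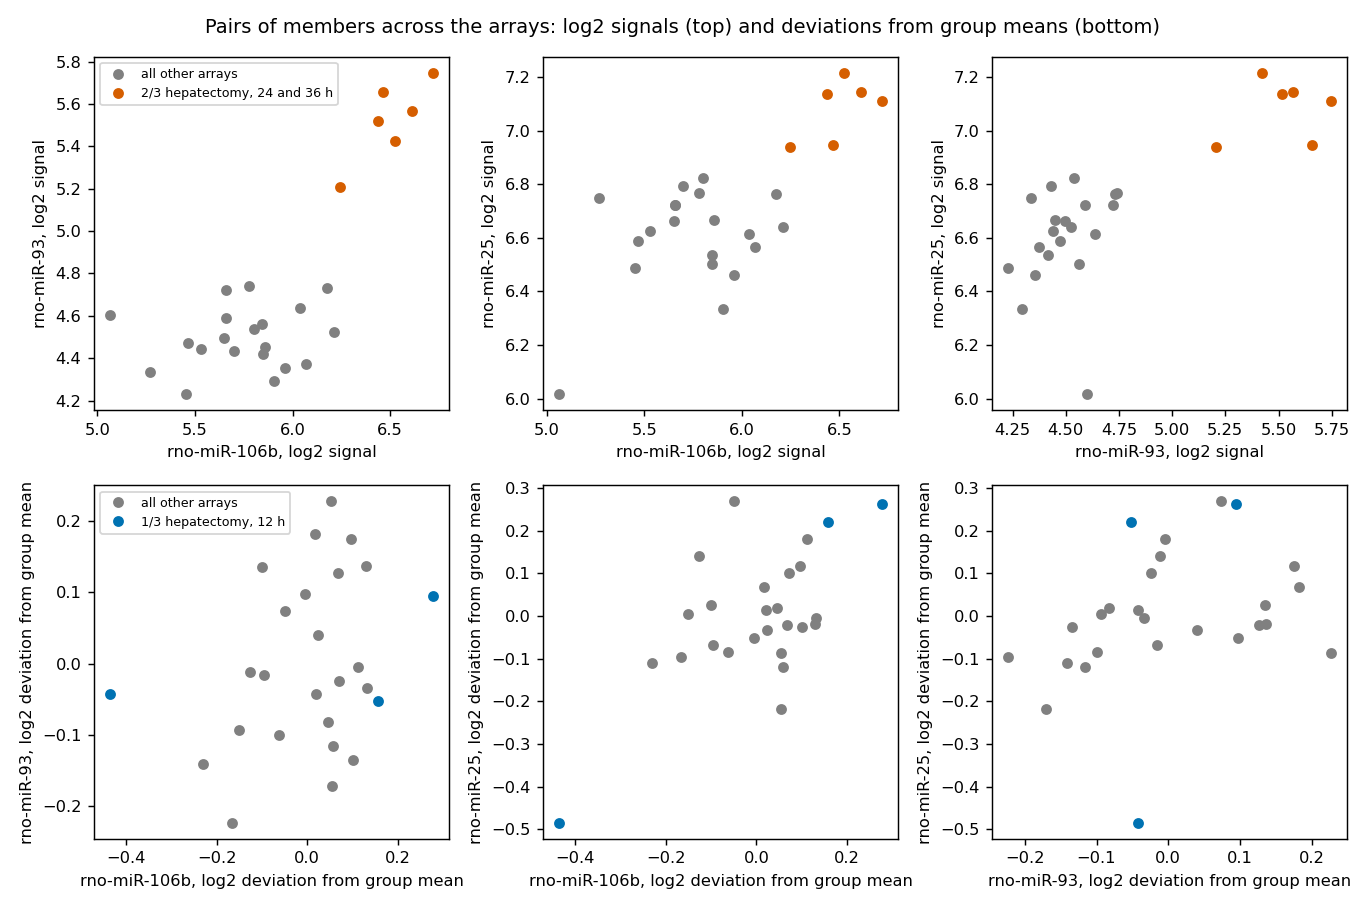
Each member against each other member across the 26 arrays, as log2 signal (top, late 2/3 PH arrays in orange) and as log2 deviation from the group mean (bottom, 1/3 PH at 12 h in blue). The 6 late arrays sit apart at the upper right in every top panel, and in the bottom panels 1 array of 1/3 PH at 12 h lies far from the rest, at -0.44 for rno-miR-106b and -0.48 for rno-miR-25.

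The members did not change by equal amounts. The log2 difference between members within each array, which dividing an array by a factor cannot alter, was compared between late and early hours by exact permutation of the arrays. After 2/3 PH rno-miR-93 gained 0.69 on rno-miR-25 and rno-miR-106b gained 0.56 on rno-miR-25 (6 arrays against 6, exact p = 0.00217 each, the smallest possible, adjusted p = 0.00325 over 3 pairs). Between rno-miR-106b and rno-miR-93, which share a seed, the shift was -0.13 (exact p = 0.0779). In the 1/3 PH series rno-miR-106b gained 0.56 on rno-miR-93 (6 against 5, exact p = 0.00433, adjusted p = 0.00649) and 0.43 on rno-miR-25 (exact p = 0.00217, adjusted p = 0.00649). A floor, unlike a factor, does alter such differences, and rno-miR-93 was set to it on the array of low total signal. Without that array the gain of rno-miR-106b on rno-miR-93 was 0.43. The pair rno-miR-93 and rno-miR-25 gave -0.13 in the full 1/3 PH series (exact p = 0.431), and 0.00 without that array.

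Thus rno-miR-106b moved against both others after 1/3 PH, and rno-miR-25 lagged behind both after 2/3 PH. Such a shift shows unequal change and not that any member was constant. On the larger scan day the shifts after 2/3 PH were 0.66 for rno-miR-93 on rno-miR-25 and 0.57 for rno-miR-106b on rno-miR-25, and after 1/3 PH 0.45 for rno-miR-106b on rno-miR-93 and 0.46 on rno-miR-25. Under normexp background correction the shifts on rno-miR-25 after 2/3 PH shrank to -0.00 for rno-miR-93 and 0.08 for rno-miR-106b, that of rno-miR-106b on rno-miR-25 after 1/3 PH to 0.09 and that of rno-miR-106b on rno-miR-93 after 1/3 PH to 0.23. The normexp offset itself draws members of unlike signal together. On replicate 1 of 2/3 PH at 36 h the normexp log2 signals were 8.90 (rno-miR-106b), 8.86 (rno-miR-93) and 8.94 (rno-miR-25). Replicate 2 had 7.76, 7.35 and 8.05 in the same order.

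Other miRNAs with the seed of rno-miR-106b and rno-miR-93 moved in the same hours, and whether their RNA bound the members' probes was not tested. Of the 3 on the array (miR-17-5p, miR-20a and miR-20b-5p), all were tested and all 3 rose late after 2/3 PH, where 34.7% of all tested were called, with a median of 0.88 against 0.04 for all tested. miR-20b-5p rose by 0.76 (SE 0.14, adjusted p = 0.000268). miR-17-5p was at the floor on 2 of 6 early arrays after 2/3 PH and on 4 of 5 early and 3 of 6 late arrays after 1/3 PH, so the size of its change is not given. None passed after 1/3 PH: 0 of the 3 were called by limma in the late change, with a median of -0.12. The difference between operations was called for 2 (6.94% of all tested), miR-17-5p and miR-20b-5p (0.87, adjusted p = 0.0106), and for miR-20a it was 0.85 (adjusted p = 0.0543). At 24 h against normal liver 3 of 3 rose (median 0.97) beside 18.1% of all tested, and at 36 h 1 of 3 (median 0.71) beside 18.8%. The 1 called at 36 h was miR-17-5p, the relative at the floor on many arrays. miR-20a (limma adjusted p = 0.0576) and miR-20b-5p (limma adjusted p = 0.0555) did not pass there.

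Of the 4 relatives with the seed of rno-miR-25, miR-32, miR-92b and miR-363 were detected on 0 arrays, so only miR-92a was tested. Its late change after 2/3 PH was 0.25 (SE 0.10, adjusted p = 0.0701) beside the 0.43 of rno-miR-25, and its difference between operations 0.48 (adjusted p = 0.0543). At 36 h it was higher after 2/3 PH than after 1/3 PH by 0.48 (SE 0.15, adjusted p = 0.0332). Relative to the median of all miRNAs this last difference changed sign under normexp background correction.

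The miR-17 to miR-92a cluster carries both seeds in 1 transcript from another locus, and is read beside the members for that reason. Of its 6 tested members miR-18a is left out of the counts, since after 2/3 PH it was at the floor on 6 of 6 early arrays and its changes compare late signal with floors. Of the 5 others 4 rose late after 2/3 PH, where 34.7% of all tested miRNAs were called, and miR-92a was not called. Among those 4, miR-19a and miR-17-5p were each at the floor on 2 of 6 early arrays after 2/3 PH. Late after 1/3 PH 1 of the 5 rose, miR-19b (0.46, adjusted p = 0.0451), against 9.72% of all tested. Over the step from 12 to 24 h after 2/3 PH 4 of the 5 rose, against 16% of all tested. In the difference between operations miR-17-5p was the only one called, against 6.94% of all tested, and it too was at the floor on many arrays. miR-15b and miR-16, which lie in Smc4, another gene of dividing cells, were tested as a further intronic pair. miR-15b rose late after 2/3 PH (0.65, SE 0.10, adjusted p = 3.76e-05) and differed between operations (0.81, adjusted p = 0.0016). miR-16 gave 0.30 (adjusted p = 0.170).

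**Figure D4:**
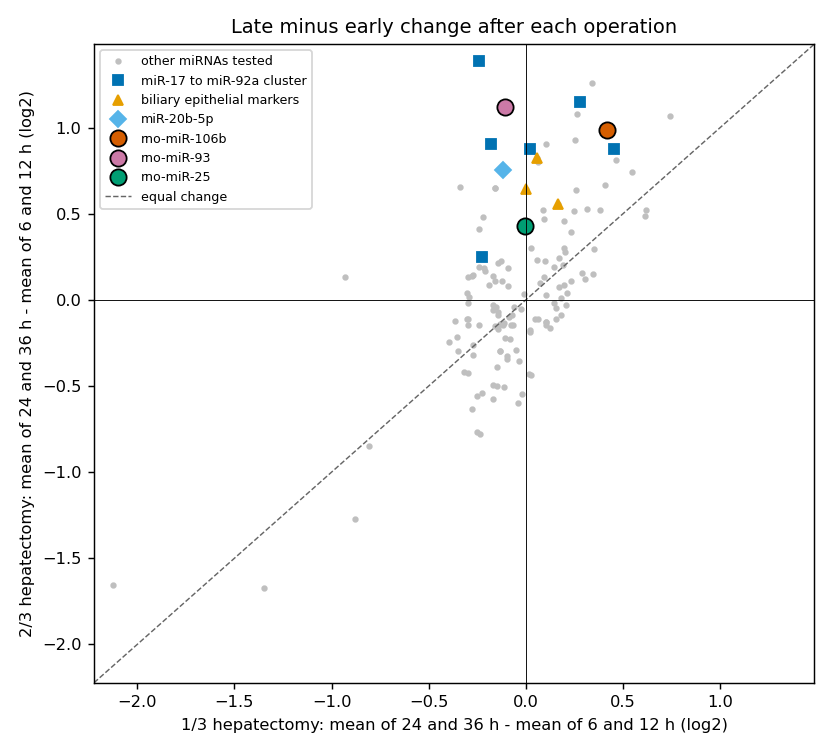
Late minus early log2 change after 1/3 PH (horizontal) against that after 2/3 PH (vertical) for each of the 144 tested miRNAs, with the members, the miR-17 to miR-92a cluster, miR-20b-5p and biliary epithelial markers marked and a dashed line of equal change. rno-miR-93 lies at -0.11 and 1.12, rno-miR-25 at -0.00 and 0.43, and rno-miR-106b to their right at 0.42 and 0.99. Under normexp the 1/3 PH value of rno-miR-106b is -0.10, or 0.15 relative to the median of all miRNAs.

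The miRNAs most like the cluster were found by Pearson r with the mean of the members' centred log2 signals over 26 arrays, among the 141 other tested miRNAs. They were miR-34a (r = 0.84), a target of p53, miR-20a (0.84), miR-3559-5p (0.82), miR-20b-5p (0.82) and miR-1949 (0.80). Since this r takes in the gap of the late 2/3 PH arrays, their own late rise (1.26 for miR-34a, 0.81 for miR-3559-5p) follows from how they were chosen and is no further evidence. Over deviations from the group means the nearest were miR-29a (0.83), miR-16 (0.80), miR-126 (0.76), miR-107 (0.74) and miR-511* (0.74). Of these, miR-511* fell late after 2/3 PH (-0.78, adjusted p = 0.000224) and the other 4 were not called. miR-29a, miR-16, miR-126 and miR-107 had their lowest signals of the series in 1/3 PH at 12 h, the group of the array of low total signal. On that array the members' mean deviation was -0.32, and how far this order rests on it was not tested.

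Marker miRNAs of the cell types in liver were read beside the members. Of 5 biliary epithelial markers, miR-200c and miR-141 were detected on 0 arrays. The 3 tested rose late after 2/3 PH with the members (median 0.65), where 34.7% of all tested miRNAs were called. miR-429 rose by 0.83 (adjusted p = 0.0039), miR-200b by 0.65 (adjusted p = 0.0167) and miR-200a by 0.56 (adjusted p = 0.0462). miR-200a was at the floor on 3 of the 6 early arrays and miR-429 on 2, so these sizes depend on the floor. After 1/3 PH 0 were called late by limma (median 0.06, 9.72% of all tested), and 0 in the difference between operations (median 0.64, 6.94% of all tested). Against normal liver 2 of the 3 were higher at 24 h after 2/3 PH (18.1% of all tested called) and 3 at 36 h (18.8%). So were 2 at 12 h after 1/3 PH (4.17%). Between operations 1 was higher after 2/3 PH at 36 h (15.3%). Their summed signal, most of it miR-200b, was 33.2 to 67.4 in normal liver. It was 44.7 to 63.6 at 6 h, 71.0 to 77.1 at 12 h, 77.1 to 112.1 at 24 h and 98.0 to 146.5 at 36 h after 2/3 PH. At 12 h after 1/3 PH it reached 138.6 with a mean of 119.0. Their part in the members' rise was not tested.

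Of the 5 leukocyte markers on the array 4 were tested, and miR-142-5p was detected on 0 arrays. Late after 2/3 PH 2 of the 4 fell (median -0.36), where 34.7% of all tested miRNAs were called. These were miR-146a by -0.60 (adjusted p = 0.0014) and miR-150 by -0.51 (adjusted p = 0.0012). The values of miR-223 (-0.21) and miR-142-3p (-0.13) did not pass. miR-150 was at the floor on 1 of the 6 early arrays, which raises its early level. Their summed signal was 213.1 to 261.6 in normal liver, 151.2 to 188.3 at 24 h and 187.1 to 197.9 at 36 h after 2/3 PH. miR-146a was the brightest of them in most arrays and miR-223 in the rest. Their part in the result was not tested. The other lists had 0 of their tested markers called by limma in the late change after 2/3 PH: hepatocyte (3 tested, median 0.07), red cell (1, median 0.04, miR-144 being detected on 1 array), endothelial (1, median -0.11) and stellate or mesenchymal (4, median 0.08, miR-145 being detected on 0 arrays). 1 hepatocyte marker, miR-192, rose late after 1/3 PH by 0.23, a direction that turned when arrays were scaled by the 75th percentile of all probes. That scaling moved the median of all miRNAs in this comparison by -0.37, so the turn followed a shift of all miRNAs.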

How the data were processed

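RNA of 26 rat livers was hybridised to Agilent miRNA arrays. Per the file headers the authors extracted spot values as intensity with Agilent Feature Extraction 10.7.3.1, background-subtracted and not normalized between arrays. The deposited table of 699 features holds log2 values normalized between arrays by a method not given in the records at hand. Spots with outlier marks were left out, spots averaged per probe, probes summed per miRNA, and arrays scaled by the 75th percentile of 109 probes well above background on all arrays. Signals under an array's floor were set to it before log2. limma 3.58.1 (R 4.3.3) fitted 9 groups to 144 miRNAs, those that all arrays of some group detected, two-sided, with Benjamini-Hochberg adjustment per comparison at 0.05. The fit had 17 residual and 2.32 prior degrees of freedom. Correlations used 100000 permutations, or exact ones for 6 arrays, in Python 3.11.15 (numpy 2.4.6, pandas 2.3.3, scipy 1.17.1), and deviations were permuted within groups. Figures used matplotlib 3.10.9. Slides (6) and scan days (3) come from the file headers. The number of arrays limits the precision.

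Named were the members, the listed seed relatives, cluster and marker miRNAs matched by exact name, and the 5 most alike by each measure. The members and lists were chosen with earlier results of these data known. Alternatives covered scaling, background, spot and probe handling, floor, filters, blocks, the deposited values and each array left out. The background alternative was normexp with an offset of 50. 1 further alternative, the deposited values without 1 array, was added after seeing the data.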

Additional observations from a re-analysis of the deposited data

Results flagged for a closer look

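The late rise differed between the operations by a test of the difference itself for rno-miR-93, which changed by 1.23 more (log2) after 2/3 PH than after 1/3 PH (SE 0.13, limma adjusted p = 2.3e-06). The same test passed for rno-miR-106b, with a difference of 0.57 (SE 0.15, limma adjusted p = 0.0279). Both calls depend on the processing: with normexp the values were 0.49 and 0.36, and with the deposited values 0.10 and 0.32, none of them called. The 0.10 includes an array on which the deposited table holds its value for undetected miRNAs, and without that array, an alternative chosen after seeing the data, rno-miR-93 gave 1.22 and was called. That of rno-miR-106b was also lost in 8 of the 26 fits without 1 array.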

How the results depend on the processing

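Apart from the test between operations, 17 changes of members passed. Leaving out 1 array at a time gave 442 values for them, of which 394 kept the call, 48 lost it and 0 turned sign. The other alternatives gave 270, of which 177 kept it, 90 lost it and 3 turned sign. All 17 kept their call with a trended prior or a floor of 1, 16 with the brightest probe or scan day as a term, and 14 with slide as a random block (correlation 0.195) or quantile normalization. Of the 43 changes not called, 13 of 703 such values gained a call, as did 3 of 1118 without 1 array, all 3 without 1/3 PH at 12 h replicate 2.

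Counts of members called moved as follows. Against normal liver after 2/3 PH (6 of 12) they were 0 with the 75th percentile of all probes, 0 with all spots, 0 without scaling, 0 with normexp and 1 with deposited values. After 1/3 PH 1 passed at an unadjusted p. Between operations (4 of 12) they were 1 with all spots, 1 with deposited values, 0 without scaling, 0 with normexp, 2 with quantile normalization, 7 at an unadjusted p, and 2 to 5 without 1 array. Late against early (6 of 9) they were 0 with the 75th percentile of all probes, 3 with all spots, 3 with deposited values, 2 without scaling and 0 with normexp. Over steps (3 of 18) they were 1 with all spots, 1 with deposited values, 0 without scaling and 0 with normexp.

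The difference in late change of rno-miR-106b lost its call with the 75th percentile of all probes (0.86), all spots (1.17), deposited values (0.32), no scaling (0.31), quantile normalization (0.42), normexp (0.36), a filter of detection on at least 1 array (0.57) and slide as a fixed block (0.64), and ran from 0.50 to 0.68 without 1 array. That of rno-miR-93 lost it with the 75th percentile of all probes (1.52), no scaling (0.96), normexp (0.49) and deposited values (0.10). On 1 array, 1/3 PH at 12 h replicate 2, the deposited table sets rno-miR-93 to the value of undetected miRNAs, -2.85. Without that array, an alternative chosen after seeing the data, the deposited values gave 1.22 (adjusted p = 0.000469) for rno-miR-93, 0.37 for rno-miR-106b and, now called, 0.49 for rno-miR-25, and the members called were 4, 4, 6 and 2 in the comparisons above. rno-miR-25 also passed at an unadjusted p (0.43) and with scan day as a term (0.51), and ran from 0.37 to 0.55 without 1 array.

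Among changes that passed in either fit, signs turned for rno-miR-106b late after 1/3 PH (-0.11 with all spots, -0.10 with normexp) and over its step from 12 to 24 h (-0.34 with normexp), and for rno-miR-93 from 6 to 12 h after 1/3 PH (-2.18 with the 75th percentile of all probes). Relative to the median of all miRNAs the 2 normexp values were 0.15 and 0.26, so those turns followed a shift of all miRNAs. The -2.18 stood beside a median of -2.17, and relative to it rno-miR-93 was -0.01, as in the main fit. Among those that did not pass, 102 of the 703 values changed sign. Covariation of deviations passed without scaling (0.96, 0.96 and 0.95 for the pairs of rno-miR-106b with rno-miR-93, of rno-miR-106b with rno-miR-25 and of rno-miR-93 with rno-miR-25), with the 75th percentile of all probes (0.95, 0.96 and 0.94), and for the first pair with deposited values (0.30). With normexp the unequal change of rno-miR-106b and rno-miR-25 after 1/3 PH was 0.0892. That background correction also made the unequal change of rno-miR-106b and rno-miR-25 after 2/3 PH 0.084, and the unequal change of rno-miR-93 and rno-miR-25 after 2/3 PH -0.0005. The shift of rno-miR-106b on rno-miR-93 after 2/3 PH ran from -0.17 to -0.10 without 1 array and passed without 2/3 PH at 6 h replicate 2. Except for the deposited values, the cause was not tested.

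The scalings moved the median of all miRNAs by -0.76 to 0.76 (none), -2.24 to 1.18 (75th percentile of all probes), -0.15 to 0.24 (quantile), -0.34 to 0.32 (deposited) and -0.48 to 0.63 (normexp). Relative to that median the late change after 2/3 PH stayed positive under all 5, lowest under normexp: 0.28 for rno-miR-106b, 0.20 for rno-miR-93 and 0.20 for rno-miR-25. In the same order, normexp left 0.09, 0.22 and 0.02 for 2/3 PH against normal liver at 36 h. It left 0.07, 0.26 and 0.09 for 2/3 PH against 1/3 PH at 36 h, and 0.11, 0.24 and 0.13 for the difference between operations. The step from 24 to 36 h after 2/3 PH was -0.08, -0.01 and -0.19. The normexp offset of 50 itself makes such log2 differences smaller. Slide as a fixed block could not be fitted for many comparisons, and the filter of detection on every array drops rno-miR-93. Groups of 2 or 3 arrays limit precision. rno-miR-93 lies near background, and the 36 h groups share no scan day. Late and early arrays of 2/3 PH share no slide, nor do the operations at 24 or 36 h. No paired analysis was possible because each rat gave 1 array.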
